A study of Rattus norvegicus with 4 samples.

Results

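Slc6a11, Slc1a1, Slc1a2 and Slc1a3 encode plasma membrane transporters that take up GABA and glutamate, and their transcripts are described here in nuclei of the rat nucleus accumbens after saline or cocaine. The members were chosen by symbol, as 4 of the 30560 genes in the deposited feature lists. Their identifiers there are ENSRNOG00000005697 for Slc6a11, ENSRNOG00000014816 for Slc1a1, ENSRNOG00000005479 for Slc1a2 and ENSRNOG00000016163 for Slc1a3. The values are unique molecular identifier (UMI) counts, 1 per captured transcript, given per nucleus, summed per library and class of nuclei, and as CPM, the UMIs of a gene rescaled to an equal total for every class and library. Where values come in pairs by treatment, the female library is first and the male library second.

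Uptake ends the action of the transmitter that neurons release, and it uses the sodium gradient across the membrane. Slc1a2 (GLT-1) and Slc1a3 (GLAST) are the glutamate transporters of astrocytes, where glutamine synthetase turns the captured glutamate into glutamine. Slc1a1 (EAAT3, also called EAAC1) is known as the glutamate and cysteine transporter of neurons, and Slc6a11 (GAT-3) as a GABA transporter of astrocyte processes. In the accumbens most neurons are GABAergic medium spiny neurons (MSN) that receive glutamatergic input, and glutamate uptake by glia there has been much studied in cocaine models.

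The study asked how MSN with the dopamine receptor D1 respond to cocaine. Adult Sprague-Dawley rats of both sexes, 90 to 120 days old, were given 20 mg/kg cocaine in saline, or the same volume of saline alone, by intraperitoneal injection on each of 7 days, with time in an open field. The accumbens was sampled with a 2 mm punch around its core 1 hour after the last injection. Nuclei stained with 7-AAD were sorted and run with 10x Genomics 3′ v3 chemistry. Each of the 4 libraries (saline female, saline male, cocaine female and cocaine male) held tissue of 4 rats, 16 in all, so that single rats cannot be told apart and each sex and treatment is 1 library. On average 12500 nuclei were loaded per library.

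The libraries held 31484217 to 40737786 UMIs in 6213 to 7265 barcodes, with 4363 to 5066 UMIs in the median nucleus, and pairs of libraries shared 10 to 18 barcodes. After filters and removal of doublets 24843 of 26228 nuclei remained. They were clustered without the 4 members, and 13 groups that reached 25 nuclei in each library were compared. The defining genes of accumbens MSN were present, with 3448 D2-MSN-like nuclei led by D2 genes such as Drd2, Adora2a and Penk. Of 4982 D1-MSN-like nuclei, 3165 lay in a cluster with Drd1, Pdyn and Ebf1 among its first genes. The other 1817 lay in a cluster led by genes such as Htr4, Sulf1 and Isl1. A further 450 nuclei were glutamatergic-like (Slc17a7), with 30 and 49 of them with saline and 253 and 118 with cocaine. The 1731 astrocyte-like nuclei (416 to 446 per library) had Slc1a2 as their first gene by fold, followed by others such as Itih3, Gja1 and Acsbg1. The 771 microglia-like nuclei (151 to 233 per library) were led by Ctss, Inpp5d, Cx3cr1 and Csf1r. There were 6510 oligodendrocyte-like nuclei, 1005 nuclei like oligodendrocyte precursor cells (OPC-like) and 297 nuclei of an unnamed cluster led by Enpp6, Tmem108 and Dock6, with Tns3 and Bcas1 also among its first genes.

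Each transporter had its own distribution over the classes, and the classes come from clustering these nuclei, so that levels between them are given without a test. CPM levels in this account of classes are not rescaled between libraries. Slc6a11 was read mainly in astrocyte-like nuclei, at 419 and 429 CPM with saline and 245 and 230 CPM with cocaine. No other group came near these values. The next in order were other GABAergic neurons (16.2 to 20.9 CPM over the libraries), glutamatergic-like nuclei (mean 15.3 CPM), an unnamed cluster led by Il1rapl2, Kit and Pthlh (14.4 CPM) and OPC-like nuclei (14.1 CPM), then eccentric MSN-like (9.65 CPM), Sst interneuron-like (8.01 CPM), D1-MSN-like (6.75 CPM) and D2-MSN-like nuclei (5.27 CPM) and an unnamed cluster led by Itga11 and Casz1 (4.06 CPM). From the second place to the last of these the ranges of neighbouring groups overlapped. Slc6a11 gave 8 UMIs in all 6510 oligodendrocyte-like nuclei and none in the microglia-like nuclei, where 0 of 771 nuclei allows a share of nuclei with a UMI of up to 0.389%. In the Enpp6-led cluster 0 of 297 nuclei allows such a share of up to 1.01%. These limits hold for captured UMIs at the depth of these nuclei and not for the share of cells that express the gene.

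Slc1a2 was most concentrated in astrocyte-like nuclei, at 6109 and 7978 CPM with saline and 6999 and 7906 CPM with cocaine, or 23.1 UMIs in the mean nucleus. All 4 libraries exceeded each of the other 12 groups by more than 10 times. OPC-like nuclei followed with a mean of 190 CPM, and glutamatergic-like nuclei held 180 CPM with a wide range from 73.3 to 333 CPM that overlapped the OPC-like range. Sst interneuron-like nuclei (51.0 CPM), the Il1rapl2-led cluster (48.7 CPM) and other GABAergic neurons (41.5 CPM) overlapped among themselves. D2-MSN-like nuclei held 22.1 CPM and D1-MSN-like nuclei 12.2 CPM, while microglia-like (8.60 CPM), eccentric MSN-like (8.39 CPM), oligodendrocyte-like (5.66 CPM) and Enpp6-led nuclei (1.57 CPM) were lowest.

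Slc1a3 was a gene of several glial classes. Astrocyte-like nuclei held a mean of 2851 CPM (9.16 UMIs per nucleus), microglia-like nuclei 1121 CPM (1.67 UMIs per nucleus), OPC-like nuclei 308 CPM and oligodendrocyte-like nuclei 213 CPM, and no 2 of these ranges over the libraries overlapped. The Enpp6-led cluster held 16.5 CPM, and the neuronal groups held between 0.824 CPM in Sst interneuron-like and 4.26 CPM in glutamatergic-like nuclei.

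In CPM, Slc1a1 had its highest levels in the oligodendrocyte lineage and not in neurons. The Enpp6-led cluster held 460 and 371 CPM with saline and 288 and 355 CPM with cocaine. OPC-like nuclei held 241 and 245 CPM with saline and 236 and 233 CPM with cocaine, all below the Enpp6-led values. Per nucleus the order differed, and neurons hold more UMIs in all. The Enpp6-led cluster was still first at 1.65 Slc1a1 UMIs per nucleus, but OPC-like nuclei (0.728) lay below glutamatergic-like (0.956) and D2-MSN-like nuclei (0.753), with overlapping ranges. The Il1rapl2-led cluster came next at 112 CPM, and the other neuronal groups lay between 77.7 CPM (eccentric MSN-like) and 93.0 CPM (D2-MSN-like) with overlapping ranges. Mature oligodendrocyte-like nuclei (7.83 to 15.2 CPM over the libraries), astrocyte-like nuclei (7.64 CPM) and microglia-like nuclei (3.17 CPM) held least. By number of transcripts neurons still held 86.2% to 89.2% of the Slc1a1 UMIs of a library, OPC-like nuclei 6.21% to 8.02% and the Enpp6-led cluster 2.51% to 6.21%.

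**Figure D1:**
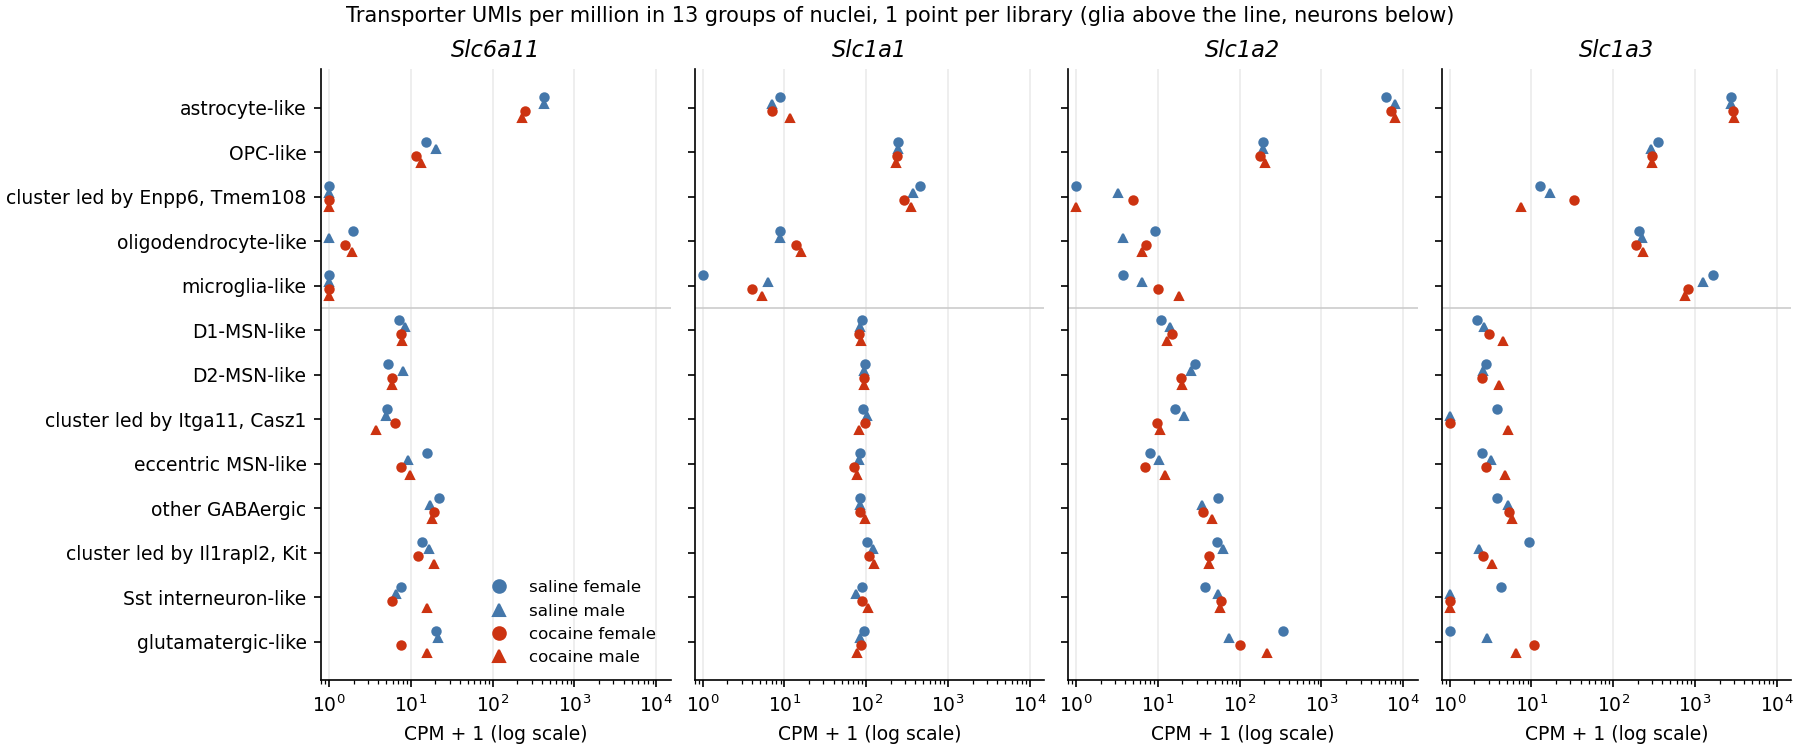
CPM + 1 (log scale) of the 4 transporters in 13 groups of nuclei, 1 point per library (circles female, triangles male, blue saline, red cocaine), with glia above the grey line and neurons below it. Slc6a11 and Slc1a2 are highest in astrocyte-like nuclei (means of 331 and 7248 CPM), Slc1a3 spans astrocyte-like, microglia-like, OPC-like and oligodendrocyte-like nuclei, and Slc1a1 is highest in the Enpp6-led cluster and OPC-like nuclei.

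Nuclei of 3 classes fell below the minimum number in a library and were summed over libraries. The 124 ependymal-like nuclei held 1563 CPM of Slc1a2, 1020 CPM of Slc1a3 and 78.0 CPM of Slc6a11. The 96 vascular-like nuclei held 535 CPM of Slc1a3, and the 79 cholinergic-like nuclei held 99.6 CPM of Slc1a2 and 60.6 CPM of Slc1a1.

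Free RNA can enter any droplet. Levels of Slc6a11, Slc1a2 and Slc1a3 in the other compared groups were therefore set beside an estimate of astrocyte RNA in the same nuclei. No such estimate was made for the ependymal-like, vascular-like and cholinergic-like nuclei. Tracer genes of astrocytes (11 genes, among them Gja1, Aqp4, Agt and Gfap) were counted in each class, and each tracer UMI was taken to bring the transporter UMIs that it has beside it in astrocyte-like nuclei of the same library. Other classes turned out to hold UMIs of Ranbp3l (2066 in oligodendrocyte-like nuclei, 124 in astrocyte-like nuclei), Slc39a12 (245 in D1-MSN-like nuclei), Acsbg1 (75 in microglia-like nuclei) and Sox9, so a second estimate with 7 tracers was added after the data were seen. The estimates count genuine low transcription of a tracer as background and assume that free RNA has the composition of nuclear RNA. In several classes they came out far above the UMIs observed, which marks them as upper estimates there.

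Slc6a11 in neurons exceeded what these tracers allow. In D1-MSN-like nuclei 278 UMIs were observed, and the 11 tracers allowed 18.5% of them as astrocyte RNA, against 10.1% with 7 tracers. The shares were 24.8% and 15.7% of 143 UMIs in D2-MSN-like nuclei, 17.5% and 16.2% of 121 UMIs in eccentric MSN-like nuclei and 8.06% and 7.14% of 300 UMIs in other GABAergic neurons. In OPC-like nuclei only 43 UMIs were seen, and 56.6% with 11 and 20.2% with 7 tracers could be astrocyte RNA. A UMI of Slc6a11 was found in 4.26% to 5.37% of D1-MSN-like nuclei, at median depths of 6662 to 9835 UMIs. It was found in 0% to 0.152% of oligodendrocyte-like nuclei, at median depths of 1485 to 1997 UMIs. With nuclei thinned to 1000 UMIs the shares were 0.821% to 0.890% and 0% to 0.158%.

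The low Slc1a2 and Slc1a3 counts of MSN mostly lay within the same allowance. For Slc1a2 the tracers allowed 228% (7 tracers 129%) of the 506 UMIs in D1-MSN-like nuclei, 134% (86.2%) of the 601 UMIs in D2-MSN-like nuclei and 427% (388%) of the 103 UMIs in eccentric MSN-like nuclei. Another estimate takes the class with fewest UMIs per nucleus as background, here the Enpp6-led cluster with 2 Slc1a2 UMIs in 297 nuclei. It comes to 6.63% of the D1-MSN-like, 3.86% of the D2-MSN-like and 13.1% of the eccentric MSN-like level of Slc1a2 per nucleus. The estimates disagree, so how much of the Slc1a2 of MSN is astrocyte RNA is not settled by these values. For Slc1a3 every neuronal group was over 100%, with 521% (296%) in D1-MSN-like nuclei, whereas the lowest class, Sst interneuron-like nuclei with 1 UMI in 236 nuclei, comes to 24.5% of the D1-MSN-like level. Glutamatergic-like nuclei differed for Slc1a2, with 22.4% (19.8%) of 679 UMIs. OPC-like nuclei had 88.6% of their 582 Slc1a2 UMIs allowed with 11 tracers and 30.7% with 7.

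Slc1a3 outside astrocytes stood above the allowance in microglia-like and OPC-like nuclei. In microglia-like nuclei 1288 UMIs were observed and 7.19% were allowed (2.06% with 7 tracers), although the same nuclei held 9 UMIs of Slc1a2 and none of Slc6a11. The astrocyte-like nuclei held 40041 Slc1a2 and 15845 Slc1a3 UMIs, so a transfer of astrocyte RNA in this ratio would carry more Slc1a2 than Slc1a3. In OPC-like nuclei 22.0% (7.55%) of 957 Slc1a3 UMIs were allowed. In oligodendrocyte-like nuclei the share was 86.3% of 2509 UMIs with 11 tracers and 10.99% with 7, and 11.4% with Ranbp3l alone left out. Only 74 Slc1a2 UMIs were seen in these oligodendrocyte-like nuclei. For Slc1a1 the background came from 9 MSN tracers. It allowed 0.56% of the 463 UMIs of the Enpp6-led cluster, 4.44% of the 732 UMIs in OPC-like nuclei and 15.3% of the 128 UMIs in oligodendrocyte-like nuclei. In astrocyte-like nuclei it allowed 85.5% of 42 UMIs, or 67.7% to 101% with a tracer left out. The tracer UMIs there were mostly Pde10a (1371), Rarb (678) and Ppp1r1b (478), and no estimate without all of these was made. The lowest class, microglia-like nuclei with 3 UMIs in 771 nuclei, comes to 16.0% of the astrocyte-like level. The estimates disagree, so how much of this Slc1a1 is MSN RNA is not settled by these values.

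**Figure D2:**
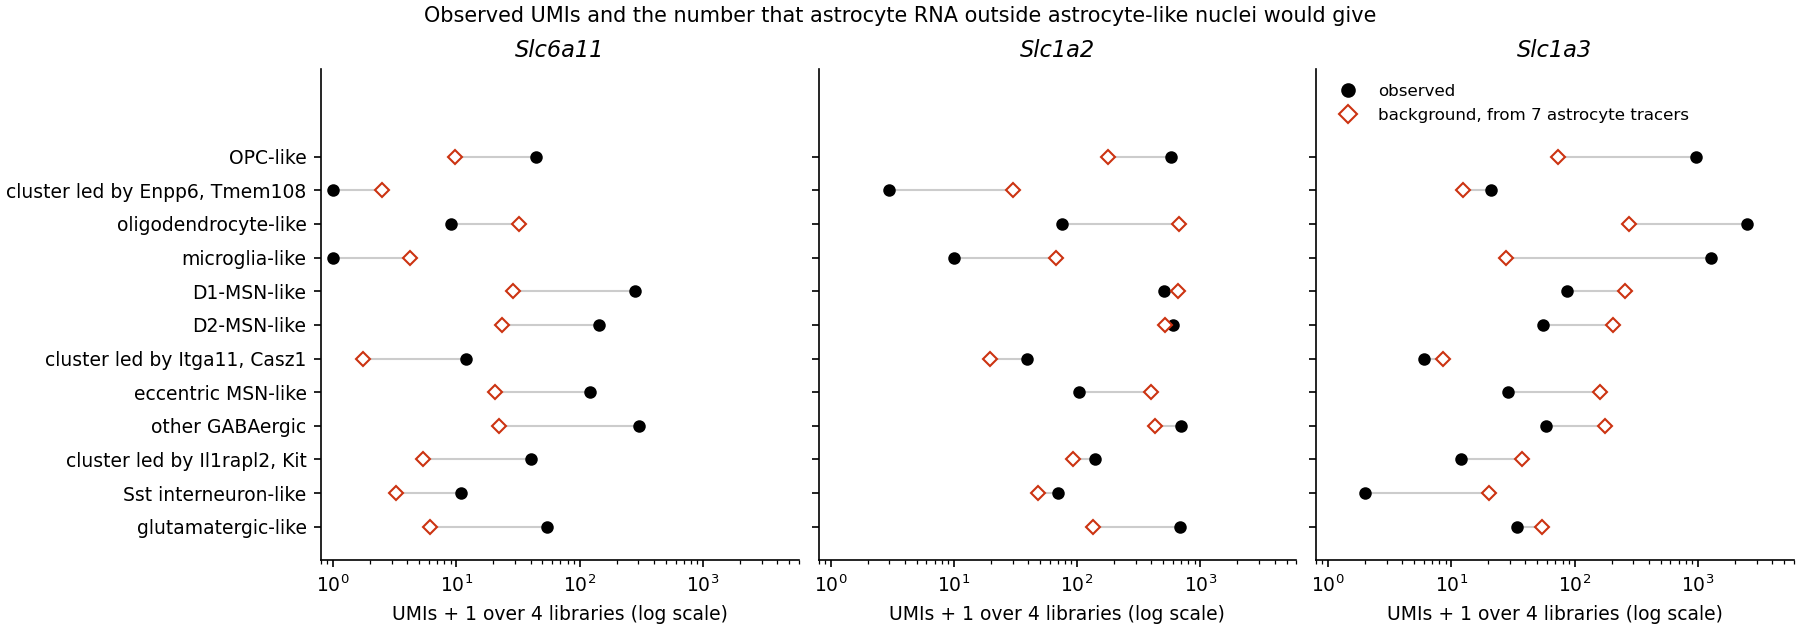
UMIs + 1 over the 4 libraries (log scale) of Slc6a11, Slc1a2 and Slc1a3 in 12 groups other than astrocyte-like nuclei (black), beside the number that RNA from astrocytes would give by 7 tracer genes (open red). Slc1a3 in microglia-like nuclei (1288 UMIs) lies far to the right of its background, whereas Slc1a2 in D1-MSN-like nuclei (506 UMIs) lies to the left of it.

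Among the astrocyte-like nuclei themselves the transporters differed in how evenly they were read. A UMI of Slc1a2 was found in 99.1% to 99.8% of nuclei and one of Slc1a3 in 98.6% to 99.1%, at median depths of 2598 to 3489 UMIs. Slc6a11 was found in 37.7% to 55.5% of them, and the tenth of nuclei with most Slc6a11 held 42.2% to 50.0% of its UMIs. Thinned to 1000 UMIs, the shares were 94.9% to 97.7%, 88.8% to 92.2% and 17.9% to 29.2%.

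Between treatments, 38 pairs of a transporter and a class had enough UMIs to be tested, and 2 of them passed an adjusted p of 0.05 in edgeR's quasi-likelihood test. These were Slc6a11 in astrocyte-like nuclei and Slc1a3 in microglia-like nuclei, both lower with cocaine. At an unadjusted p under 0.05 there were 5 such pairs, and with DESeq2 there were 0 of 38 at the adjusted threshold. Over all genes tested, an unadjusted p under 0.05 was found for 972 of 10345 in astrocyte-like and 436 of 5525 in microglia-like nuclei. It was found for 1005 of 10640 in oligodendrocyte-like, 1385 of 13293 in D1-MSN-like and 1190 of 12526 in D2-MSN-like nuclei. DESeq2 passed 1 gene in astrocyte-like and 0 in microglia-like nuclei, so its 0 of 38 does not set the transporters apart. The library is the replicate, with 2 per treatment and sex in the model, so the p-values measure only the spread between these pooled libraries. Each gene has 1 residual degree of freedom, moderated across genes, and in astrocyte-like, microglia-like and OPC-like nuclei the fit took the spread of all genes from a shared trend, on which very small p-values rest. CPM in the following comparisons are scaled by TMM.

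Slc6a11 was the 1 of 4 transporters that changed in astrocyte-like nuclei, where 1.36% of 10345 genes tested passed. It gave 633 and 573 UMIs with saline and 366 and 282 with cocaine. In CPM these were 424 and 445 with saline and 245 and 229 with cocaine. Both cocaine libraries lay below both saline libraries with no overlap, and the sexes lay close together within a treatment. The mean fell from 434 ± 15.0 to 237 ± 11.8 CPM (SD, n = 2 each), 45.3% lower. The log2 change was −0.87 with a standard error (SE) of 0.11 and an adjusted p of 3.5e-11 (edgeR). Within females the log2 ratio was −0.77 (95% interval −0.96 to −0.58) and within males −0.90 (−1.11 to −0.69), intervals that cover counting error only and rest on 1 library per treatment.

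The difference was seen both in how many nuclei held a Slc6a11 UMI and in how many UMIs those nuclei held. Both are readings of the same UMIs, and at such low counts a lower mean lowers both, so they add no separate support. With nuclei thinned to 1000 UMIs, 29.2% and 28.5% of nuclei held a UMI with saline and 21.6% and 17.9% with cocaine. The nuclei with a UMI then held 1.512 and 1.504 UMIs on average with saline and 1.31 and 1.28 with cocaine. Without thinning, nuclei with 2 or more UMIs made up 35.3% and 27.1% with saline and 18.2% and 15.1% with cocaine. The log2 change after thinning was −0.80 with an edgeR adjusted p of 0.00152.

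Of 18 alternative settings 13 kept Slc6a11 in astrocyte-like nuclei past the threshold, with adjusted p from 2.63e-11 to 0.531. The call was lost with DESeq2 (log2 change −0.88, adjusted p = 0.194) and on leaving out the cocaine male library (−0.82, edgeR adjusted p = 0.0513). Libraries were left out in a fit without the sex term, which by itself gave −0.87 with an edgeR adjusted p of 0.0498. The parts of the library and of the missing sex term in the lost call were not tested. With each of the other libraries left out in the same way the adjusted p was 0.00027 to 0.00633.

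A sub-cluster of 447 astrocyte-like nuclei, led by Lama2 and Sntg1 with Hs6st3 and Adcy8, had the highest Slc6a11 level. Without TMM scaling its nuclei held 820 and 1132 CPM with saline and 577 and 640 CPM with cocaine, again without overlap between treatments. The 715 nuclei led by Slc24a2 and Scml4 held 129 and 187 CPM with saline and 127 and 132 CPM with cocaine. In the 235 nuclei led by Shroom3 and Otx1 the values were 171 and 153 CPM against 184 and 151 CPM, and in the 265 nuclei led by Cdh18 and Efna5 they were 270 and 238 CPM against 159 and 230 CPM. In both Shroom3-led and Slc24a2-led nuclei the treatments overlapped, whereas the 2 saline values of the Cdh18-led nuclei lay above both cocaine values. Between the Lama2-led and Slc24a2-led nuclei Slc1a2 ran the other way, at 2736 to 3700 CPM and 8187 to 10182 CPM. The remaining 69 nuclei, led by AC125757.1 and Prkag2 with Gfap, held 69.2 and 304 CPM of Slc6a11 with saline and 16.2 and 79.3 CPM with cocaine. These rest on 5, 14, 1 and 3 UMIs. Slc1a2 there stood at 5730 and 3192 CPM with saline and 5888 and 5920 CPM with cocaine.

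The Lama2-led nuclei were 159 of 416 and 104 of 439 astrocyte-like nuclei with saline, 38.2% and 23.7%. With cocaine they were 116 of 446 and 68 of 430, 26.0% and 15.8%. Of the 6 leading genes of this sub-cluster, 4 were themselves lower with cocaine in the whole class, with log2 changes of −1.17 (SE 0.14) for Sntg1, −0.89 (0.13) for Lama2, −0.83 (0.14) for Adcy8 and −0.65 (0.15) for Tmem117. Their edgeR adjusted p were 1.89e-13, 2.75e-09, 7.2e-07 and 0.00204, while Hs6st3 did not pass (−0.45, adjusted p = 0.0809). The leading genes of the other sub-clusters that passed in the whole class were all higher with cocaine. Their log2 changes were 0.96 for Slc24a2, 0.74 for Shroom3, 0.79 for Dio2 (Shroom3-led nuclei) and 0.48 for AC125757.1. The edgeR adjusted p were 0.000691, 0.0312, 1.83e-05 and 0.00823 in this order. Slc24a2-led nuclei were 31.7% and 42.4% of the class with saline and 41.3% and 49.5% with cocaine, with overlap. Leading genes helped to define the sub-clusters, so these shares are given as the make-up behind the class values and not as a result. In settings added after the data were seen, the log2 change of Slc6a11 was −0.69 (SE 0.18, edgeR adjusted p = 0.0702) within the Lama2-led nuclei and −0.33 (SE 0.14, adjusted p = 0.531) in all the others. With every sub-cluster drawn in equal numbers from each library, 68 nuclei for the Lama2-led one, it was −0.57 (SE 0.12, adjusted p = 0.0793). None of these 3 passed, and each kept the sign.

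**Figure D3:**
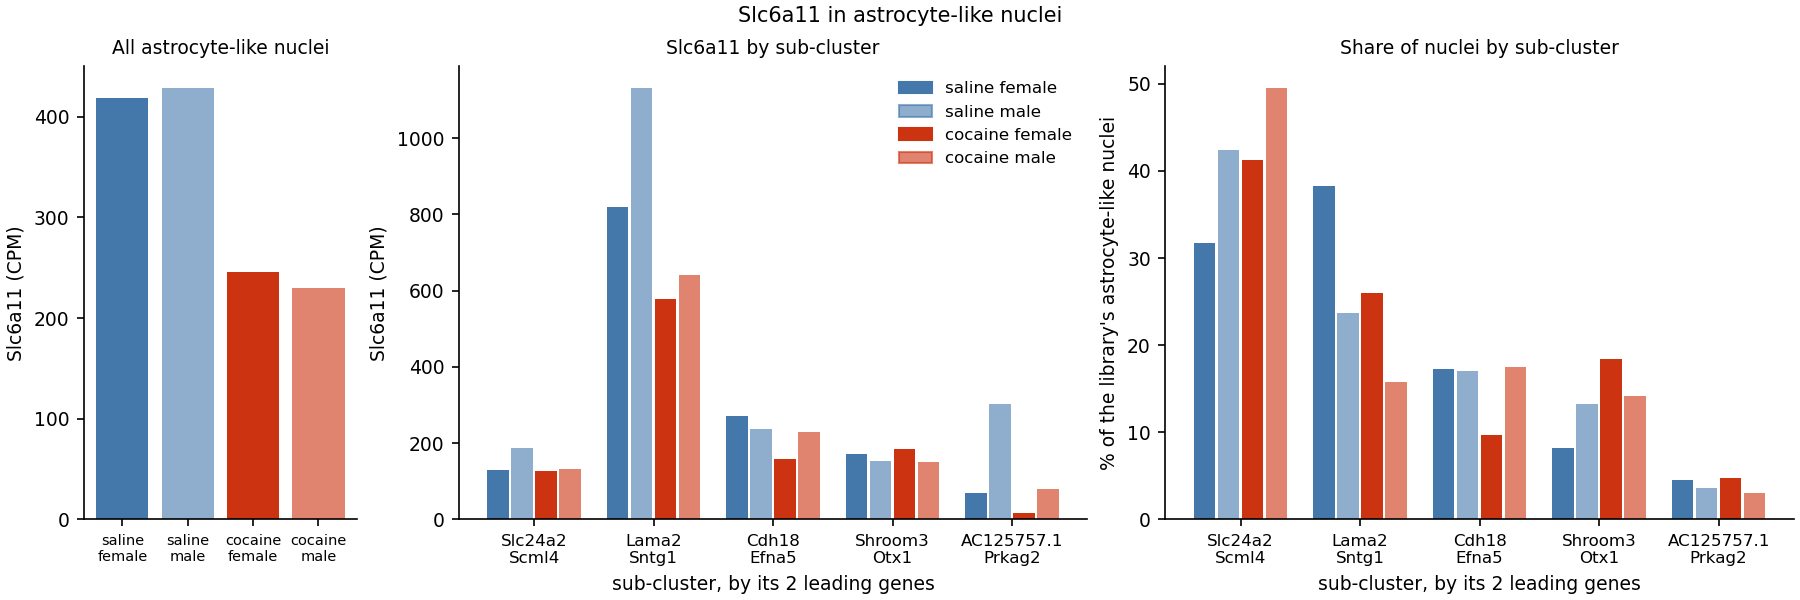
Slc6a11 CPM without TMM scaling in all astrocyte-like nuclei (left) and by sub-cluster (middle), and the share of each library's astrocyte-like nuclei by sub-cluster (right), 1 bar per library, blue saline and red cocaine, darker female and lighter male. The Lama2-led nuclei hold 577 to 1132 CPM and are 15.8% to 38.2% of a library's astrocyte-like nuclei.

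UMIs of the MSN tracers also differed between the astrocyte-like nuclei of the treatments. The 9 MSN tracers summed to 322 and 266 CPM with saline and to 770 and 595 CPM with cocaine, with at most 1 of 9 at 0. The 11 astrocyte tracers summed to 3251 and 3101 CPM with saline and 2976 and 3126 CPM with cocaine. Leaving out the tenth of nuclei with most neuron markers in each library gave a log2 change of −0.93 for Slc6a11 with an edgeR adjusted p of 0.00103.

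Slc6a11 was tested in 7 further groups, and its fitted log2 changes there ran from −1.05 to −0.03 with edgeR adjusted p of 0.571 to 1.00. OPC-like nuclei held 14.7 and 20.4 CPM with saline and 10.8 and 12.3 CPM with cocaine, from 14, 13, 8 and 8 UMIs. These 4 values did not overlap between treatments, but the change of −0.58 had an SE of 0.51 and a 95% interval of −1.58 to 0.42, which includes the change seen in astrocyte-like nuclei. The difference between the changes in OPC-like and astrocyte-like nuclei was 0.30 with an adjusted p of 1.00, where 0 of 4 transporters and 0.0181% of 11066 genes passed. In D1-MSN-like nuclei Slc6a11 stood at 6.21 and 7.45 CPM with saline and 6.65 and 6.74 CPM with cocaine (−0.03, 95% interval −0.47 to 0.41, edgeR adjusted p = 0.989), with overlap. In D2-MSN-like nuclei the change was −0.21 (−0.77 to 0.35, adjusted p = 0.883) and in other GABAergic neurons −0.14 (−0.66 to 0.38, adjusted p = 0.943). The intervals of these 3 neuronal groups do not reach −0.87, and the sign turned in each on leaving out 1 library. Those of the other neuronal groups include it, at −0.61 (−1.23 to 0.01) in eccentric MSN-like and −1.05 (−2.30 to 0.19) in glutamatergic-like nuclei. The Il1rapl2-led cluster gave −0.03 (−1.06 to 0.99). On leaving out 1 library the sign held in eccentric MSN-like (−0.97 to −0.13) and glutamatergic-like nuclei (−1.63 to −0.51). No difference between a neuronal group and astrocyte-like nuclei was tested.

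Microglia-like nuclei had 1 transporter with enough UMIs to be tested, Slc1a3, and it was lower with cocaine, where 0.362% of 5525 genes tested passed. It gave 609 and 232 UMIs with saline and 272 and 175 with cocaine. In CPM these were 1833 and 1372 with saline and 876 and 823 with cocaine. The saline female library was highest, the cocaine libraries lay close together, and the treatments did not overlap. The mean fell from 1602 ± 326 to 850 ± 37.6 CPM (SD, n = 2 each), 47.2% lower. The log2 change was −0.92 (SE 0.13) with an edgeR adjusted p of 2.46e-09, the smallest p of the class. Within females the log2 ratio was −1.04 and within males −0.72, each from 1 library per treatment.

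The share of microglia-like nuclei with a Slc1a3 UMI, another reading of the same UMIs, differed in the same direction. With nuclei thinned to 1000 UMIs it was 73.6% and 60.0% with saline and 45.6% and 45.5% with cocaine. In D1-MSN-like nuclei, whose Slc1a3 did not exceed the tracer allowance, the thinned share was 0.219% to 0.437%. Unthinned shares were 50.0% to 85.6% in microglia-like nuclei at median depths of 1747 and 1166 UMIs with saline and 1352 and 1150 UMIs with cocaine, and 1.05% to 2.41% in D1-MSN-like nuclei at 6662 to 9835 UMIs. Nuclei with 2 or more UMIs were 65.2% and 37.7% of the microglia-like nuclei with saline and 26.6% and 21.5% with cocaine. The log2 change after thinning was −0.89, with an edgeR adjusted p of 2.07e-06.

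Astrocyte RNA was low in these microglia-like nuclei. The 11 astrocyte tracers summed to 115 and 75.1 CPM with saline and to 77.5 and 86.7 CPM with cocaine, with 5 or 6 of 11 at 0 in each library and Aqp4, Gjb6 and Cldn10 at 0 in all. The MSN tracers summed to 123 and 145 CPM with saline and 194 and 208 CPM with cocaine, and their part in the result was not tested. Nuclei with no UMI of any astrocyte tracer or of Slc1a2 were 164 of 201 and 137 of 151 with saline and 206 of 233 and 162 of 186 with cocaine. In these, a setting added after the data were seen, Slc1a3 stood without TMM scaling at 1675 and 1240 CPM with saline and 810 and 694 CPM with cocaine. The log2 change there was −0.97 (SE 0.13, edgeR adjusted p = 2e-09), beside −0.92 in all microglia-like nuclei. These nuclei held 489 of 609 and 210 of 232 Slc1a3 UMIs with saline. With cocaine they held 235 of 272 and 138 of 175, so most UMIs are the same and the value adds no separate support.

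Of 15 alternatives 13 kept the change of Slc1a3 in microglia-like nuclei past the threshold, with adjusted p from 4.16e-10 to 0.486. It was lost with DESeq2 (−0.92, adjusted p = 0.486) and on leaving out the saline female library (−0.70, edgeR adjusted p = 0.0528), the library with the deepest microglia-like nuclei. The fit with all libraries but without the sex term, which the fits with 1 library left out also lack, gave −0.92 with an adjusted p of 0.0103.

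**Figure D4:**
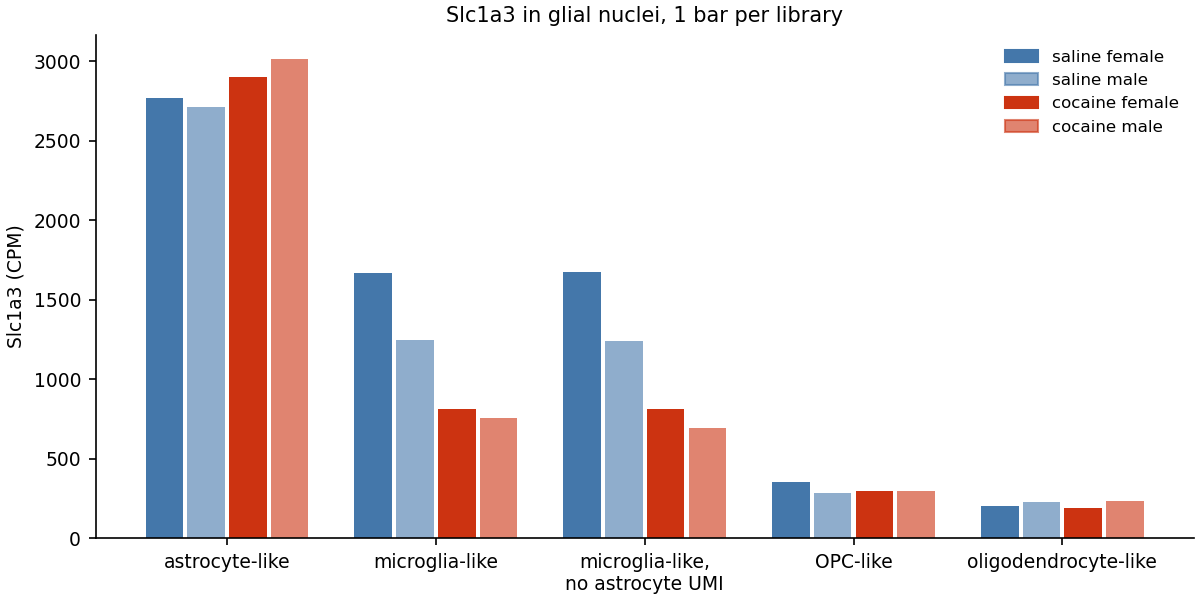
Slc1a3 CPM without TMM scaling in 4 glial classes and in microglia-like nuclei with no UMI of an astrocyte tracer or Slc1a2, 1 bar per library. In microglia-like nuclei both cocaine bars (811 and 758 CPM) are below both saline bars (1669 and 1245 CPM), and in astrocyte-like nuclei the 4 bars lie between 2716 and 3017 CPM.

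In astrocyte-like nuclei Slc1a3 did not pass. It stood at 2800 and 2818 CPM with saline and 2903 and 3004 CPM with cocaine, 2809 ± 12.6 against 2953 ± 71.0 CPM (SD, n = 2 each). The log2 change was 0.07 (SE 0.10, 95% interval −0.12 to 0.26, edgeR adjusted p = 0.910), so a fall of the size seen in microglia-like nuclei lies outside the interval. The difference of the changes, microglia-like minus astrocyte-like, was −0.98 (SE 0.22, edgeR adjusted p = 0.0215), where 0.0382% of 10465 genes passed. Of 14 alternatives 6 kept it past the threshold, and over all 14 the adjusted p ran from 0.000805 to 1.00. It was lost in 8, among them DESeq2 (−0.98, adjusted p = 1.00). Of the fits with a single library left out, it was lost without the saline female (−0.71), the cocaine female (−1.06) and the cocaine male library (−0.93). The rest of the 8 were other changes of processing.

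Slc1a2, the main glutamate transporter of astrocytes, did not differ between treatments beyond its spread. Astrocyte-like nuclei held 6181 and 8276 CPM with saline and 7001 and 7872 CPM with cocaine. The saline libraries enclosed the cocaine libraries. The mean was 7229 ± 1482 CPM with saline and 7436 ± 616 CPM with cocaine (SD, n = 2 each), a log2 change of 0.05 (SE 0.10, 95% interval −0.13 to 0.24, edgeR adjusted p = 0.940). Leaving out 1 library gave −0.15 to 0.26, so no direction is given. Slc1a1 had 12, 8, 9 and 13 UMIs in astrocyte-like nuclei, too few to read a change (0.17, SE 0.47).

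In OPC-like nuclei 0 of 4 transporters passed in edgeR, 0 had an unadjusted p under 0.05 and 0 passed in DESeq2, where 0.0236% of 8468 genes passed in edgeR. Of these genes 544 had an unadjusted p under 0.05, and DESeq2 passed 0 genes of any kind. Slc1a1 stood at 251 and 256 CPM with saline and 241 and 235 CPM with cocaine, a log2 change of −0.09 (95% interval −0.34 to 0.17, edgeR adjusted p = 0.967). Slc1a3 stood at 368 and 298 CPM against 303 and 298 CPM (−0.15, SE 0.12, adjusted p = 0.915), and Slc1a2 at 199 and 198 CPM against 179 and 207 CPM (−0.05, SE 0.14, adjusted p = 0.990). The treatments overlapped for both Slc1a2 and Slc1a3.

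In the Enpp6-led cluster Slc1a1, the only transporter tested there, stood at 519 and 412 CPM with saline and 311 and 378 CPM with cocaine. Both cocaine libraries were lower, but the log2 change of −0.41 (SE 0.21) had an edgeR adjusted p of 0.770. For Slc1a1, DESeq2 and an unadjusted p under 0.05 gave 0 of 1. In this cluster 0.199% of 5017 genes passed in edgeR, 342 had an unadjusted p under 0.05 and DESeq2 passed 0 genes.

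In oligodendrocyte-like nuclei 0 of 3 transporters passed in edgeR or DESeq2 and 1 had an unadjusted p under 0.05, where 0.0752% of 10640 genes passed in edgeR. That one was Slc1a1, with 33 and 17 UMIs with saline and 44 and 34 with cocaine. Its 8.10 and 8.02 CPM with saline lay below 12.9 and 14.9 CPM with cocaine (log2 change 0.75, SE 0.27, edgeR adjusted p = 0.409). Slc1a3 stood at 211 and 229 CPM against 189 and 226 CPM (−0.09, SE 0.09, adjusted p = 0.776), with overlap.

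Neurons gave 25 tests in 8 groups, of which 0 passed in edgeR or DESeq2 and 2 had an unadjusted p under 0.05. In D1-MSN-like nuclei 0 of 4 passed, beside 1.12% of 13293 genes, and in D2-MSN-like nuclei 0 of 4, beside 0.439% of 12526 genes. The counts were 0 of 3 in eccentric MSN-like nuclei (0.493% of genes), 0 of 4 in other GABAergic neurons (0.0243%), 0 of 3 in the Il1rapl2-led (0.0949%) and 0 of 2 in the Itga11-led cluster (0.0975%). In glutamatergic-like and Sst interneuron-like nuclei 0 of 3 and 0 of 2 passed, where 0% of 8661 and of 6119 genes did. Slc1a1, the transporter most read in neurons, stood at 89.6 and 84.0 CPM with saline and 81.2 and 83.9 CPM with cocaine in D1-MSN-like nuclei. Its log2 change was −0.07 (SE 0.08, 95% interval −0.24 to 0.10, edgeR adjusted p = 0.860), and in D2-MSN-like nuclei −0.06 (SE 0.09, adjusted p = 0.888).

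The pair nearest the threshold was Slc1a2 in D2-MSN-like nuclei, at 27.6 and 25.2 CPM with saline and 17.9 and 18.2 CPM with cocaine. The treatments did not overlap, and the log2 change was −0.55 (SE 0.14, edgeR adjusted p = 0.0593). At clustering resolution 1.0 it was −0.57 with an adjusted p of 0.0321, within a range of 0.0321 to 1.00 over 14 alternatives. By library the 7 tracers allowed 48.8% to 141% of these UMIs as astrocyte RNA. The other pair, Slc1a3 in D1-MSN-like nuclei, rests on 10, 18, 23 and 35 UMIs, fewer than the tracers allow as astrocyte RNA (0.95, SE 0.40, edgeR adjusted p = 0.349).

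**Figure D5:**
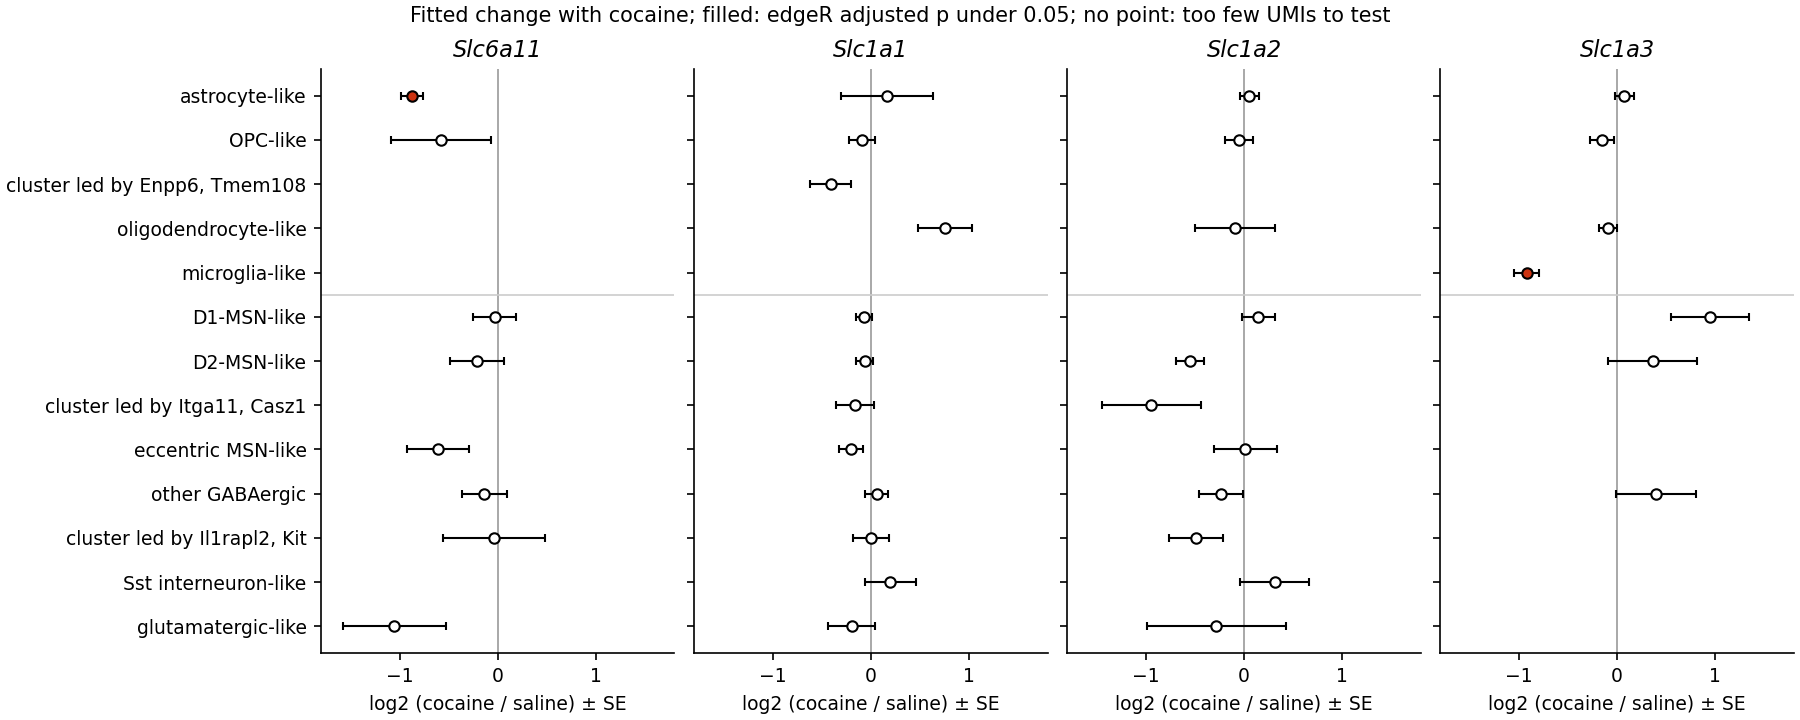
Fitted log2 change with cocaine ± SE for each transporter in each group with enough UMIs, glia above the grey line and neurons below it. The 2 filled points, Slc6a11 in astrocyte-like nuclei (−0.87) and Slc1a3 in microglia-like nuclei (−0.92), have an edgeR adjusted p under 0.05, and every other point is open.

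Summed over all nuclei, which mixes classes, 0 of 4 transporters passed in edgeR, 1 had an unadjusted p under 0.05 and 1 passed in DESeq2, where 0.0484% of 16524 genes passed in edgeR. That one was Slc6a11, with 976 and 817 UMIs with saline and 618 and 486 with cocaine. Its 26.4 and 27.1 CPM with saline lay above 16.7 and 16.8 CPM with cocaine (26.7 ± 0.520 against 16.8 ± 0.0488, SD, n = 2 each). The log2 change was −0.67 (SE 0.07) with an adjusted p of 0.0697 in edgeR and 0.0393 in DESeq2, and 0.0393 to 1.00 over the alternatives. Over all genes of the sum, 2190 had an unadjusted p under 0.05 and 39 passed in DESeq2. In such a sum, fewer nuclei of a type and less RNA per nucleus cannot be told apart. Astrocyte-like nuclei were 6.52% to 7.44% of the nuclei of a library and held 64.9% and 70.1% of its Slc6a11 UMIs with saline and 59.2% and 58.0% with cocaine. The changes of Slc1a1 (−0.05), Slc1a2 (0.03) and Slc1a3 (−0.03) in the sum were within 1 SE of 0.

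The wider pathway was read through 34 other genes in 7 roles: GABA and glutamate transport at the plasma membrane, vesicular loading, glutamine transport, metabolism, the ion gradients that drive uptake, and proteins that bind the transporters. In astrocyte-like nuclei 19 of them could be tested, 0 passed in edgeR or DESeq2 in either direction, and 3 had an unadjusted p under 0.05. Of all 10345 genes tested in the class, 1.36% passed in edgeR and 972 had an unadjusted p under 0.05. DESeq2 passed 1 gene there. The median log2 change of the 19 was −0.14, beside 0.00 over all genes tested in the class. Abat, which breaks GABA down, stood at 379 ± 101 CPM with saline and 309 ± 30.2 CPM with cocaine (SD, n = 2 each), with a log2 change of −0.28 and an edgeR adjusted p of 0.295. Nearest the threshold was Glud1, glutamate dehydrogenase, at 795 ± 4.95 against 634 ± 94.9 CPM (SD, n = 2), with a log2 change of −0.34 and an edgeR adjusted p of 0.0789. Glul, glutamine synthetase, stood at 509 ± 36.5 against 461 ± 28.2 CPM (−0.14, adjusted p = 0.778).

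The partners of glutamate uptake in astrocyte-like nuclei did not pass either. Slc7a11, which exchanges cystine for glutamate, had a log2 change of 0.06, and Slc38a3, which exports glutamine, one of −0.01. Slc4a4, a sodium bicarbonate cotransporter, had one of −0.25 (edgeR adjusted p = 0.942, 0.991 and 0.270 in this order). In microglia-like nuclei 7 of the 34 could be tested, in OPC-like nuclei 19 and in oligodendrocyte-like nuclei 22. In these classes 0 passed in edgeR or DESeq2, and 1, 0 and 4 had an unadjusted p under 0.05. Over all genes tested in them, 436 of 5525, 544 of 8468 and 1005 of 10640 had an unadjusted p under 0.05. The shares that passed in edgeR were 0.362%, 0.0236% and 0.0752%.

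Over the 13 groups and 4 libraries (52 points, which share libraries and depth), the genes whose log2(CPM + 1) ran most like each transporter were found among 14700 genes by Pearson's r, as a description. Genes with names that start with ENSRNOG, AABR or LOC were passed over, and the 5 most alike of the rest are given. For Slc6a11 they were Nim1k (0.93), Cpe (0.92), Msi1, Slc1a2 (0.90 each) and Acsl6 (0.89). For Slc1a2 they were Slc6a11 (0.90), Gldc, Cspg5 (0.87 each), Nkain4 and Fads1 (0.86 each). For Slc1a3 they were Lrp4 (0.94), Dhrs4, Rassf2, Apoe and Kansl1l (0.91 each), and for Slc1a1 Tnr (0.95), Opcml, Cdh13 (0.93 each), Igsf9b (0.91) and RGD1306271 (0.90). Slc1a2 and Slc6a11 were thus each among the most alike of the other, whereas r was 0.37 between Slc1a2 and Slc1a3 and −0.65 between Slc1a1 and Slc1a3.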

How the data were processed

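The authors deposited raw UMI counts, whole numbers by gene and nucleus without normalization, in 1 matrix per library, made with Cell Ranger 6.1.2 per the file headers. The build was rn7 per the submitters' processing notes. Which annotation and alignment options were used is not given in the sources used here. Coordinates are left out.

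Nuclei under 200 genes or over 5% mitochondrial UMIs were dropped (4), and the highest Scrublet scores (scanpy 1.11.5) were removed at 0.8% per 1000 nuclei, 1381 nuclei or 4.97% to 5.81% of a library. Clustering used 2000 variable genes without the members, related transporters, immediate-early, mitochondrial and sex-linked genes, 30 principal components of log values scaled per gene within libraries, 15 neighbours and Leiden (leidenalg 0.10.2) at resolution 0.5, which gave 25 clusters. Names needed a mean score of at least 2.0 from 106 markers (6 not listed), 1.5 for MSN with D1 and D2 scores 0.5 apart and 1.0 for other GABAergic neurons, and 3 markers in 5% of nuclei. These naming limits were chosen after seeing the data, 6 clusters stayed unnamed, and 3 of these were tested. Astrocyte-like nuclei were sub-clustered at resolution 0.4.

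Counts summed per library and class were tested with edgeR 4.0.16 in R 4.3.3 (quasi-likelihood, TMM, filterByExpr, sex as covariate), adjusted by Benjamini-Hochberg over all genes of a class at 0.05. Differences between classes used library as a block. Alternatives were DESeq2 1.42.0, other scaling, filters, doublet rates and resolution, thinning to 1000 UMIs and each library left out, without the sex term. Scripts were tested on simulated data. Shares have exact 95% intervals that cover counting error only, and a count of 0 allows 3. Named genes are the members, up to 3 of each role of the pathway list and any of it that passed, the 5 most alike genes (names starting with ENSRNOG, AABR or LOC passed over), and markers or tracers where a value rests on them. Leading genes of sub-clusters were named after their values were seen. Some genes of the pathway list and some markers are not reported here. The members and lists were chosen with earlier results of these data known.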

Additional observations from a re-analysis of the deposited data

Results flagged for a closer look

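The cocaine effect on Slc1a3 differed between microglia-like and astrocyte-like nuclei by −0.98 on the log2 scale in edgeR (adjusted p = 0.0215). Both cocaine libraries lay below both saline libraries in microglia-like nuclei and not in astrocyte-like nuclei. Over 14 alternatives the adjusted p ran from 0.000805 to 1.00, and 6 of them passed.

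Slc1a2 in glutamatergic-like nuclei had log2 ratios of opposite sign in the sexes, −1.75 in females (95% interval −2.05 to −1.44) and 1.55 in males (1.06 to 2.08). The difference was not tested, and the intervals cover counting error only with 1 library per sex and treatment. The class held 30 and 49 nuclei in the female and male libraries with saline and 253 and 118 with cocaine, and these lay in 2 clusters with different Slc1a2 levels. One cluster held 135 and 50.1 CPM with saline and 34.6 and 39.9 CPM with cocaine, from 8, 42, 191 and 58 nuclei. The other held 387 and 159 CPM with saline and 263 and 366 CPM with cocaine, from 22, 7, 62 and 60 nuclei. Different clusters thus held most of the class in different libraries, and the part of this mix in the ratios was not tested.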

How the results depend on the processing

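The cause of each difference below was not tested. Slc6a11 in astrocyte-like nuclei gave log2 changes of −0.88 with DESeq2, −0.69, −0.33 and −0.57 in the Lama2-led sub-cluster, without it and in equal numbers, and −0.93 to −0.82 on leaving out 1 library. In the sum over all nuclei DESeq2 gave −0.67. Slc1a2 in astrocyte-like nuclei turned to −0.027, −0.073 and −0.046 in the same 3 sub-cluster settings and ran from −0.15 to 0.26 without 1 library. Slc1a3 in microglia-like nuclei gave −0.92 with DESeq2 and −1.13 to −0.70 without 1 library. Its difference from astrocyte-like nuclei was −0.98 with DESeq2 and with no filter, −1.19 with no doublet removal, −1.02 without the 10% of nuclei with most neuron markers, −0.93 thinned, and −1.21 to −0.71 without 1 library. Genes passing in astrocyte-like nuclei, 141, came to 2 without the sex term, 1 with DESeq2, 91 with library totals, 60 at double the doublet rate, 54 without those 10%, 26 thinned, 8, 27 and 4 in the sub-cluster settings and 9 to 59 without 1 library. In microglia-like nuclei the 20 genes came to 3 without the sex term, 0 with DESeq2, 4 with RLE, 11 without astrocyte UMIs and 7 to 21 without 1 library. The astrocyte background of microglial Slc1a3 moved from 7.19% to 2.23% without Acsbg1, 0.254% by the lowest class, 2.06% with 7 tracers and 11.6% with no doublet removal. The settings with sub-clusters, nuclei without astrocyte UMIs and 7 tracers were chosen after seeing the data. Of 461 values for 37 further results, 418 kept direction and side of the threshold, 1 passed and 42 changed sign, 25 of them without 1 library. Thinning turned Slc6a11 in D1-MSN-like nuclei to 0.073 (0.023 at resolution 1.0), Slc1a2 and Slc1a3 in OPC-like nuclei to 0.11 and 0.039, Slc1a1 in eccentric MSN-like nuclei to 0.20 and Slc1a2 in glutamatergic-like nuclei to 0.31. No doublet removal turned Slc1a2 to 0.14 in OPC-like and 0.10 in oligodendrocyte-like nuclei (0.025 at double the rate, 0.12 with DESeq2) and Slc1a1 to −0.011 in other GABAergic neurons. In the Il1rapl2-led cluster Slc1a1 turned to −0.0069 (no sex term), −0.0078 (DESeq2) and −0.024 (no filter) and Slc6a11 to 0.025 (library totals), and in eccentric MSN-like nuclei Slc1a2 turned to −0.013 (DESeq2) and −0.0014 (no filter). Without 1 library Slc1a1 ran from −0.25 to 0.55 in astrocyte-like nuclei, −0.15 to 0.11 in the Il1rapl2-led cluster, −0.028 to 0.16 in other GABAergic neurons and −0.10 to 0.0030 in the sum. Slc1a2 ran from −0.017 to 0.35 in D1-MSN-like, −0.16 to 0.061 in OPC-like, −0.46 to 0.40 in eccentric MSN-like, −1.18 to 0.92 in glutamatergic-like and −0.58 to 1.01 in oligodendrocyte-like nuclei, −0.48 to 0.15 in other GABAergic neurons and −0.17 to 0.24 in the sum. Slc1a3 ran from −0.19 to 0.81 in D2-MSN-like, −0.30 to 0.0098 in OPC-like and −0.21 to 0.036 in oligodendrocyte-like nuclei and −0.090 to 0.030 in the sum. Slc6a11 ran from −0.15 to 0.11 in D1-MSN-like and −0.55 to 0.17 in D2-MSN-like nuclei, −0.37 to 0.29 in the Il1rapl2-led cluster and −0.28 to 0.081 in other GABAergic neurons. The labels give no replicate numbers, and the sex term of the model already pairs the libraries within sex. Depth limits pairs with few UMIs, such as Slc6a11 in OPC-like nuclei (43 UMIs).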
